A study of Mus musculus with 2 samples.

Results

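The genes described here are 37 subunits and enzymes of nucleosome remodeling complexes: the SWI/SNF (BAF) family, the ISWI and CHD ATPases, the NuRD complex and Ino80. They were taken by symbol, not by a measured value, out of 55536 genes in the gene tables, and all 37 symbols were found in both libraries. The material was poly(A) RNA from inflammation-experienced regulatory T cells. Per the labels these were primary cells from male mice at 7 weeks of age and derived from activated regulatory T cells. There was 1 biological replicate with 2 technical libraries, called library 1 and library 2, and no other genotype, treatment or time, so there was no comparison between conditions. RNA was sheared to a fragment size range of 100 to 300. The labels name no strain and do not say how the cells were purified.

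Nucleosome remodelers use ATP to slide, evict or exchange histones, and so set which DNA is open to transcription factors. The SWI/SNF ATPases Smarca4 (BRG1) and Smarca2 (BRM) are alternatives within a complex that also holds a scaffold, and mutually exclusive subunits divide the family into canonical BAF, PBAF and non-canonical BAF. NuRD joins a CHD ATPase to histone deacetylases and is best known for repressing genes. In mouse regulatory T cells the non-canonical BAF subunit Brd9 is known to sustain Foxp3 expression, and in developing T cells Chd4 is known to act at Cd4.

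Library 1 held 26593267 expected counts and library 2 held 22036331. The 37 genes together took 0.497% of these counts in library 1 (95% Wilson interval 0.494 to 0.4998) and 0.5002% in library 2 (0.497 to 0.503), intervals that cover counting error only. The cell label was checked against marker genes: 7 of 7 T cell genes were detected, summing to 11208 TPM in library 1 and 10931 TPM in library 2, and 5 of 5 regulatory T cell genes, Foxp3 among them, with 784 and 759. Markers listed for other cells were detected too, but single genes carried several of the sums that follow. Nkg7 made up most of the NK cell sum, Ighm most of the B cell sum and Pecam1 most of the stroma or epithelium sum. Pcna made up the largest part of the cell cycle sum. The sums alone therefore do not show how much of each cell type was present. Erythroid or platelet genes summed to 8496 TPM in library 1 and 96.4 TPM in library 2 (6 of 8 detected, Ppbp at 0 in both), and B cell genes to 602 and 548 (5 of 6). NK cell genes summed to 159 and 241 (3 of 5, Klra8 at 0 in both, Ncr1 at 0 in library 1), myeloid genes to 32.2 and 53.9 (4 of 9, Ly6g and S100a8 at 0 in both, C1qc at 0 in library 1), and cell cycle genes to 283 and 222 (8 of 8). The CD8 T cell genes summed to 26.98 and 13.5 (1 of 2), dendritic cell genes to 7.56 and 5.90 (3 of 5, Clec9a at 0 in library 1) and stroma or epithelium genes to 93.2 and 86.3 (2 of 5, Col3a1 at 0 in library 1).

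Almost all of the 37 listed genes were detected, and most of them at levels above the median detected gene. Levels are given in TPM, which counts transcripts per length within a library, and a gene was called detected when both libraries reached a TPM of 1. By this rule 35 of the 37 genes were detected, against 13718 of all 55536 genes in the gene tables. Among the 37, the mean TPM was 10 or more for 32 genes, 50 or more for 23 and 100 or more for 12. The median mean TPM of all 37 was 73.9, against 21.3 for the 13718 detected genes of the series, which places it at the 80.05 percentile of detected genes. Of the 37, 31 lay above that median. The detected genes of the series were taken whatever their annotated gene type. Detected coding genes alone were not taken as a reference for level. In bulk RNA a smaller number of expressing cells and less RNA per cell cannot be told apart, so these are levels of the whole preparation.

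**Figure D1:**
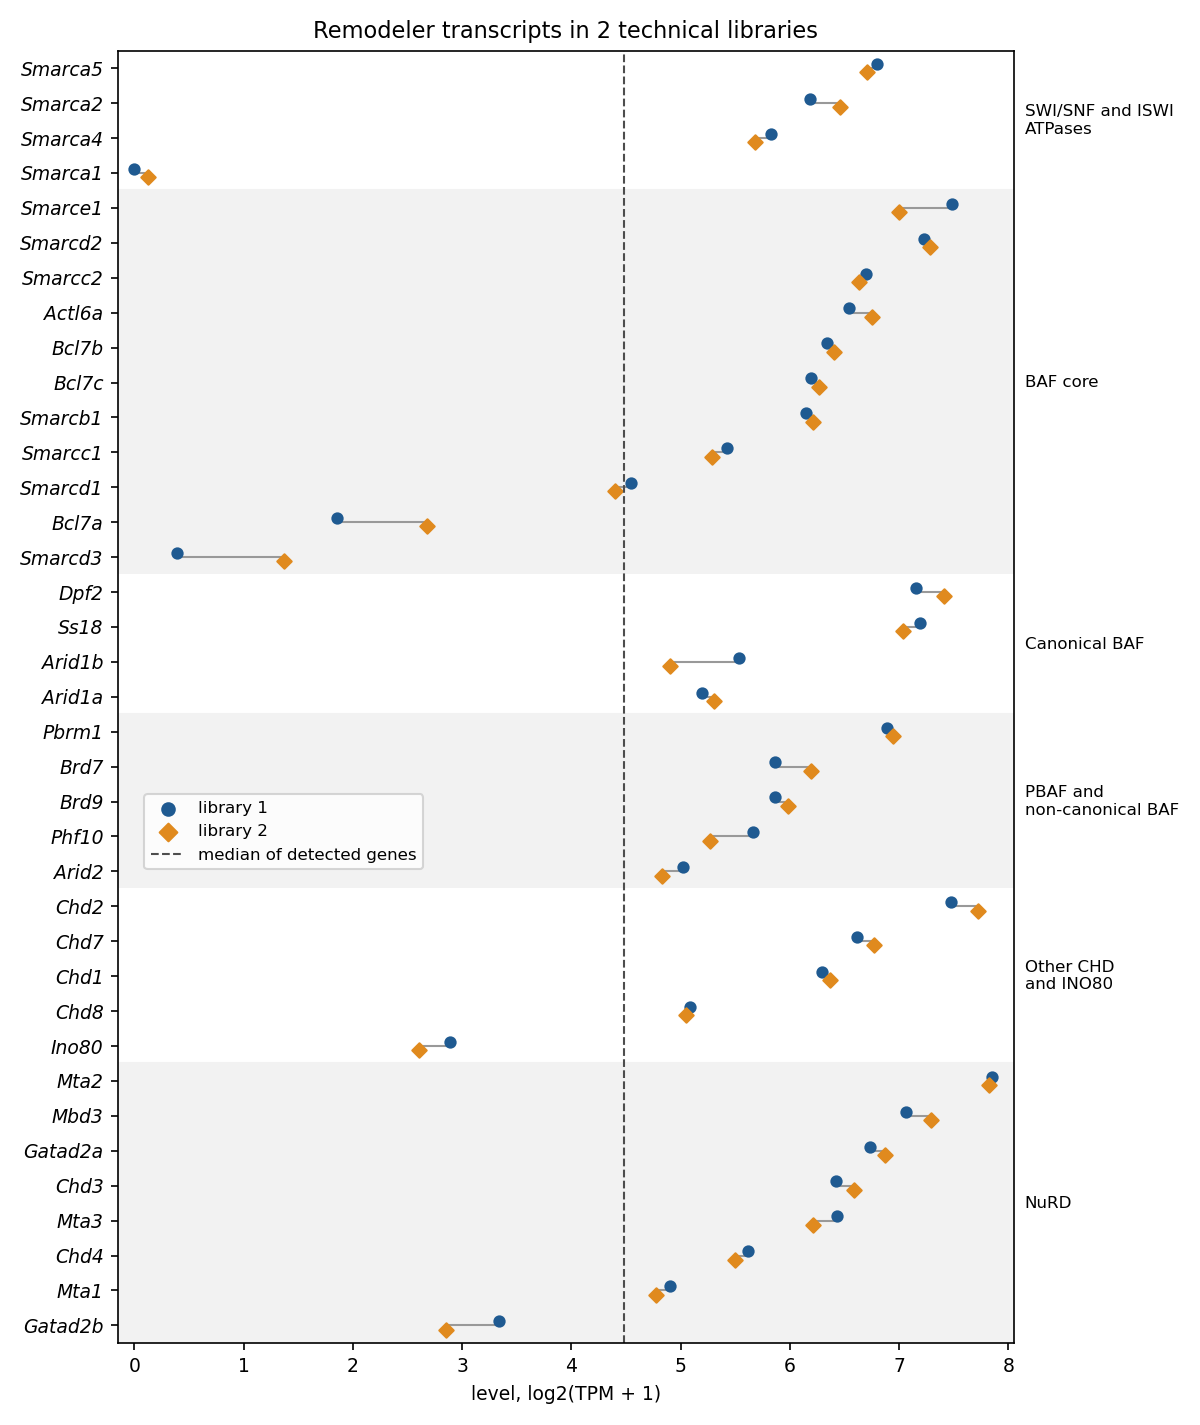
Level of each of the 37 remodeler genes, as log2(TPM + 1) on the horizontal axis, with 1 point for library 1 and 1 for library 2 and the genes grouped by complex. Mta2 (TPM 229.9 and 225) is highest and Smarca1 (0 and 0.09) lowest, and for most genes the points of both libraries lie close together. The dashed line is the median of detected genes.

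The ATPases that drive the SWI/SNF and ISWI complexes were expressed at moderate to high levels, with 1 exception. Smarca4, the BRG1 ATPase, had 55.9 TPM in library 1 and 50.2 TPM in library 2. Smarca2, its paralog BRM, had 71.9 and 86.9, so it was the higher of the pair at gene level in both libraries. The ISWI ATPase Smarca5 (SNF2H), which spaces nucleosomes, had 110.2 and 104. Its paralog Smarca1 (SNF2L) was not detected, with 0 counts in library 1, which allows a CPM of up to 0.113, and 5 counts in library 2. Smarca5 therefore supplied 100% and 99.9% of the ISWI ATPase TPM.

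The core subunits differed more among themselves. Most are shared by the SWI/SNF assemblies, but non-canonical BAF is known to lack Smarcb1 and Smarce1. The core subunit Smarcb1 (SNF5) had 69.8 TPM in library 1 and 73.2 TPM in library 2. Of the scaffold pair that holds the complex together, Smarcc2 (BAF170) had 103 and 98.1 and Smarcc1 (BAF155) had 41.8 and 38.1. The bridging subunits of the SMARCD family were led by Smarcd2, with 149 and 155, ahead of Smarcd1 with 22.4 and 20.1. Smarcd3 (BAF60C), known from heart and muscle, had 0.31 and 1.59 and missed the detection threshold. Smarce1 (BAF57), an HMG-box subunit, had 178 and 127, although the small gene table, a second count of the same libraries, held 5.08% and 6.09% of its counts. By TPM the actin-related subunit Actl6a (BAF53A) had 91.96 and 107. Of the small BCL7 subunits, Bcl7b had 80.02 and 83.9, Bcl7c had 71.98 and 75.8 and Bcl7a had 2.62 and 5.40. Thus 2 of the 11 core genes, Smarcd3 and Bcl7a, were near the detection threshold, and the other 9 stood at 20.1 TPM or more in each library.

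The subunits grouped here by SWI/SNF assembly were all detected. In canonical BAF, the DNA-binding subunits Arid1a and Arid1b had 35.7 and 45.5 TPM in library 1, and 38.4 and 28.8 TPM in library 2, so their order by gene-level TPM turned round between the libraries. Dpf2, a reader of histone acylation, had 141 and 169.8 in libraries 1 and 2, and Ss18, known as a fusion partner in human synovial sarcoma, had 145 and 131. Ss18 was grouped here with canonical BAF but is not particular to it, being known from non-canonical BAF too. In PBAF, the ARID subunit Arid2 had 31.4 and 27.4, the polybromo subunit Pbrm1 had 118 and 122, the bromodomain subunit Brd7 had 57.4 and 72.2, and the PHD finger subunit Phf10 had 49.7 and 37.6. Brd9, which marks non-canonical BAF, had 57.4 and 62.2. The genes of the ARID or scaffold position that is specific to 1 assembly can be set beside each other. Arid1a and Arid1b summed to 81.2 TPM in library 1 and 67.3 TPM in library 2, Arid2 had 31.4 and 27.4, and Bicra and Bicral, the scaffolds of non-canonical BAF, summed to 29.98 and 37.65. These are shares of 56.9%, 22.03% and 21.03% in library 1 and of 50.9%, 20.7% and 28.5% in library 2, so the canonical BAF genes held the largest share in both. RNA shares are not shares of assembled complexes, which were not measured.

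Among the CHD ATPases outside NuRD, Chd2 had the highest level, 177 TPM in library 1 and 211 TPM in library 2. Up to 2628 of its exonic bases are shared with 1810026B05Rik on the same strand, which had 394 and 475 TPM, and how shared reads were divided was not tested. Chd1, which binds methylated lysine 4 of histone H3, had 77.4 and 81.8. Chd7, whose human counterpart is mutated in CHARGE syndrome, had 96.9 and 108, and Chd8, a regulator of Wnt signalling and in humans a known autism gene, had 33.0 and 32.1. Ino80, the ATPase of the complex of that name, was the lowest detected ATPase, with 6.43 and 5.09.

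NuRD held the most abundant gene of all 37. Mta2 (chromosome 19, 8941875 to 8952303, plus strand, mm10), a scaffold that binds the deacetylases, had a TPM of 228 ± 3.15 (SD, n = 2 technical libraries), with 229.9 in library 1 and 225 in library 2. Its paralogs Mta3 (85.2 and 73.0) and Mta1 (29.0 and 26.4) followed in the same order in both. The NuRD ATPases were Chd3 (84.8 and 95.1) and Chd4 (Mi-2 beta, 47.96 and 44.3). Mbd3, the methyl-binding domain subunit that assembles NuRD in place of Mbd2, had 133 and 156. Of the GATA zinc finger subunits that link it to the ATPase, Gatad2a had 105 and 116, and Gatad2b had 9.08 and 6.20.

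A further 41 genes of the same pathways that were not among the 37 were read in the same way, and 38 were detected, at a median mean TPM of 43.1. The highest were beta-actin Actb, which is also a BAF and INO80 subunit (2043 TPM in library 1 and 1994 TPM in library 2), the NuRD histone chaperones Rbbp4 (288 and 236) and Rbbp7 (221 and 191), Mbd2 (284 and 291) and the deacetylase Hdac1 (249.5 and 242). The 3 that were under a TPM of 1 in both were Actl6b (0 and 0.62), Dpf1 (0.02 and 0.04) and Chd5 (0.07 and 0.15), all known for their roles in neurons. Mbd2 thus stood above Mbd3 in both libraries.

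At positions filled by alternative paralogs, gene-level TPM gave a dominant paralog with over 85% of the sum in 3 of 9 positions: Smarca5 for ISWI, Smarcd2 (86.8% in library 1 and 87.7% in library 2) and Gatad2a (92.1% and 94.9%). Smarcc2 held 71.1% and 72.0% of the scaffold pair, and Mta2 held 66.8% and 69.4% of the MTA genes. Chd3 held 63.9% and 68.2% against Chd4, and Smarca2 held 56.2% and 63.4% against Smarca4. Bcl7b held 51.8% and 50.8% and Arid1a 44.0% and 57.1%, so by gene-level TPM neither of these positions had a clear leader.

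Several of these orders depended on which transcripts were counted. A gene's TPM sums all its annotated transcripts, short and non-coding ones included, so the shares were taken again over long coding transcripts alone, those annotated as protein coding whose coding sequence is at least 80% of the longest of that gene. This alternative was chosen after the tables had been seen. Smarca2 then held 36.4% in library 1 and 47.0% in library 2, below Smarca4 in both. This leaves out Smarca2-202, which has 4530 coding bases but is annotated as a target of nonsense-mediated decay. With it, an alternative also added after the tables had been seen, Smarca2 held 47.6% and 54.9%, so the order of the pair differed between the libraries. Chd3 held 46.5% and 49.6%, a little below Chd4. Bcl7b held 86.8% and 97.2% of the BCL7 genes. For Bcl7c the only transcript past the 80% rule with any TPM was Bcl7c-201, at 8.46 TPM in library 1 and 0 in library 2. The Bcl7b shares thus depend on that estimate. Arid1a held 54.4% and 63.1% against Arid1b, so Arid1a led in both libraries. Smarcc2 (78.8% and 77.3%), Smarcd2 (86.0% and 88.1%), Mta2 (67.4% and 68.8%) and Gatad2a (94.3% and 97.0%) stayed the leading paralogs.

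**Figure D2:**
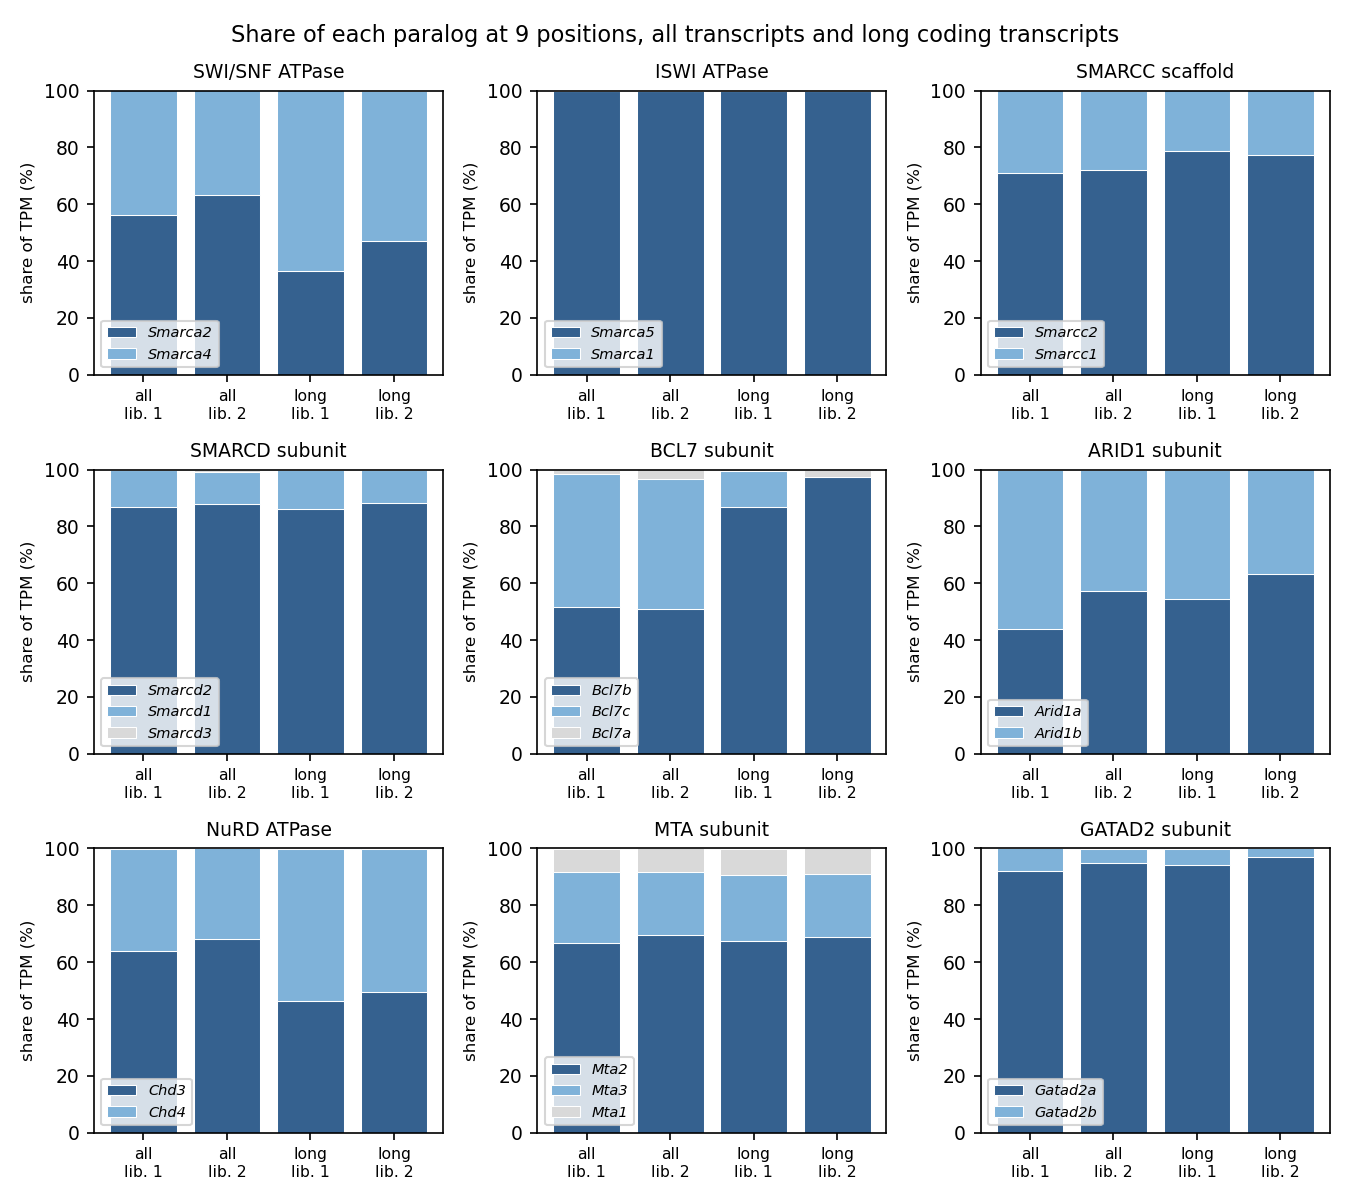
Share of each paralog (%, vertical axis, 0 to 100) in the summed TPM of its position, for all transcripts and for long coding transcripts, with library 1 left of library 2 in each pair of bars. Smarca2 holds 56.2% and 63.4% over all transcripts and 36.4% and 47.0% over long coding ones, and Smarcd2, Gatad2a and Smarca5 stay above 85% throughout.

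The type of transcript that carried each gene's TPM varied widely among the 35 detected genes. The median share of TPM in transcripts annotated as protein coding was 85.3% in library 1 and 87.7% in library 2, and the leading transcript was protein coding in both for 28 genes. It was the same transcript in both libraries for 29 of 35. It differed for Smarca2, Smarca5, Smarcc2, Bcl7a, Chd1 and Chd4. Long coding transcripts held a median of 63.4% and 63.5% of TPM, and 79.7% and 80.5% of counts. In 12 genes they held under 50% of TPM in both libraries.

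Genes with a large non-coding part by TPM were found in several complexes, but shares by counts differed. By counts, long coding transcripts held 73.4% and 73.1% of Smarce1 in libraries 1 and 2, and 61.6% and 66.8% of Smarca5. They held 74.7% and 76.2% of Chd3, 82.0% and 94.2% of Arid1b and 79.8% and 83.6% of Brd7. Lower count shares were those of Dpf2 (54.4% and 63.0%), Brd9 (49.0% and 50.5%) and Bcl7c (22.2% and 0%). The shares below are of TPM. Smarce1 had 67.3% of its TPM in library 1 and 67.0% in library 2 in processed transcripts, which have no annotated coding sequence, and its long coding TPM was 58.3 and 41.9. Smarca5 had 55.1% and 51.3% in retained-intron transcripts. Its long coding transcript Smarca5-201 had a TPM of 49.5 and 50.6. Chd3 (54.1% and 47.9%), Brd9 (46.5% and 41.8%) and Arid1b (35.96% and 34.8%) also had at least 30% of TPM in retained-intron transcripts in both libraries. Brd7 had 51.4% and 56.2% in processed transcripts, and Bcl7c had 33.3% and 48.5%. Dpf2 had 30.8% and 23.6% in transcripts annotated as targets of nonsense-mediated decay. At the other end, Ino80 came from a single coding transcript, Gatad2a had 100% and 100% of TPM in coding transcripts, and Smarca4 had 100% and 100%.

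In several genes, Pbrm1, Chd7 and Chd2 among them, the leading coding transcript by TPM had a short annotated coding sequence. Pbrm1-215, with 2795 coding bases against 4902 in Pbrm1-207, the most abundant of the long ones, held 69.9% of Pbrm1 TPM in library 1 and 64.5% in library 2, and long coding transcripts held 7.77% and 10.2%. For Chd7, Chd7-203 with 1894 coding bases held 63.6% and 56.7%, and Chd7-202 with 8958 coding bases had a TPM of 9.02 and 13.9. For Chd2, Chd2-201 with 1000 coding bases held 26.5% and 28.8%, and the long transcript Chd2-203 had a TPM of 19.2 and 22.98. By counts Chd2-203 was the leading transcript, with 52.1% and 50.8%. Mbd3-206 (554 coding bases of 855) and Bcl7c-207 (216 of 723) were leading coding transcripts with a short annotated coding sequence too. The coding lengths of Pbrm1-215, Chd7-203, Chd2-201 and Mbd3-206 are not multiples of 3, so these annotated sequences are not whole reading frames. Whether these transcripts stand for shorter proteins was not tested. The TPM of Chd2-203 is well below the gene-level TPM of Chd2, 177 and 211. These shares are the authors' estimates from short fragments, and the assignment of reads to overlapping transcripts of 1 gene was not checked by another method.

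**Figure D3:**
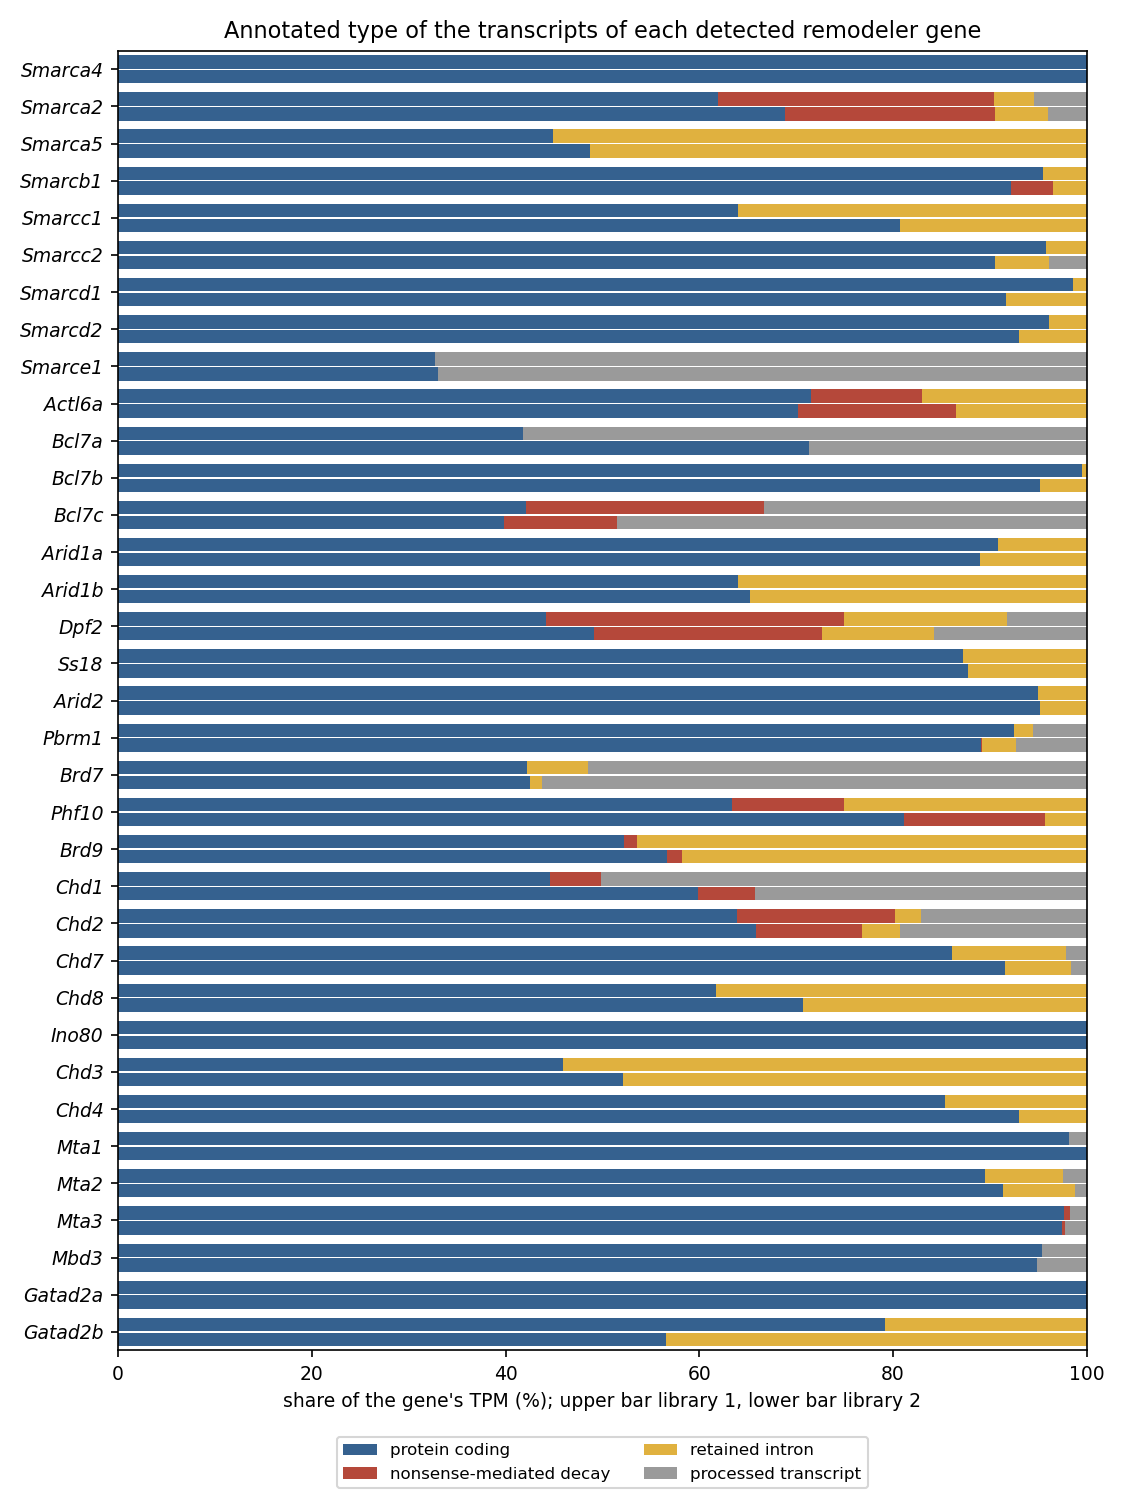
Share of each detected gene's TPM (%, horizontal axis, 0 to 100) by annotated transcript type (colours), for the 35 detected remodeler genes, with the bar of library 1 above that of library 2. Smarce1 (32.7% and 33.0%) has the least in protein-coding transcripts in both libraries, and Ino80, Smarca4 and Gatad2a have all of it there.

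Optional coding segments were read where long coding transcripts of 1 gene, each with at least 10% of the gene's TPM in either library, differed by 1 run of 9 to 300 coding bases. This rule was set after the transcript tables had been seen. It gave 6 segments in 5 genes whose length is a multiple of 3, so that the reading frame goes on behind them. They are shown because each adds or removes part of the protein of an ATPase or core subunit and each was present in part of the transcripts. The sequences are from the GENCODE M21 transcripts (mm10), 5′ to 3′ along the transcript. Capitals mark the optional segment and lower case the coding bases on either side.
Smarca4, chr9:21686013-21686021, plus strand: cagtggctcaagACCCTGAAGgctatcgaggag
Smarca2, chr19:26759878-26759931, plus strand: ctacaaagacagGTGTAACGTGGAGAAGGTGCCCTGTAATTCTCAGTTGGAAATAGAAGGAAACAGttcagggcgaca
Smarcb1, chr10:75916773-75916799, minus strand: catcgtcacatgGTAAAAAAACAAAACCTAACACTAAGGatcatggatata
Chd3, chr11:69348710-69348811, minus strand: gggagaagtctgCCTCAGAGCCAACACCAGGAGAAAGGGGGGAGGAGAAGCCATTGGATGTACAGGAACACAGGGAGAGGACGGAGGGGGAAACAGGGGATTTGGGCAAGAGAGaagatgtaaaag
Chd4, chr6:125100778-125100798, plus strand: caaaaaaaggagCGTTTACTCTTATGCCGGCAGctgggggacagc
Chd4, chr6:125102432-125102470, plus strand: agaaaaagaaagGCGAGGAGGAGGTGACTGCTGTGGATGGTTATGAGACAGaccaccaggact

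Both forms of each segment were present in both libraries. The 54-base segment of Smarca2 was in 63.1% of the TPM of transcripts that span it in library 1 and 50.4% in library 2. Transcripts with it had 35.6 and 35.1 TPM and those without it 20.8 and 34.5. Long coding transcripts of Smarca2 had only 31.7 and 44.5 TPM, so this share takes in other transcripts too. The share over long coding transcripts alone was not taken, so which form leads among them is not given. The 9-base segment of its paralog Smarca4 was in 17.5% and 27.0%, so the form without it was the commoner in both. The 27-base segment of Smarcb1, which separates Smarcb1-201 from Smarcb1-202, was in 45.6% and 27.3%. The 102-base segment of Chd3 was in 50.1% and 45.9%. In Chd4 the 21-base segment was in 45.6% and 28.2% and the 39-base segment in 57.6% and 65.1%. The segment of Smarca4 and the 39-base segment of Chd4 had the higher share in library 2, and the other 4 in library 1. No test was made, since 2 technical libraries give no spread between animals.

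**Figure D4:**
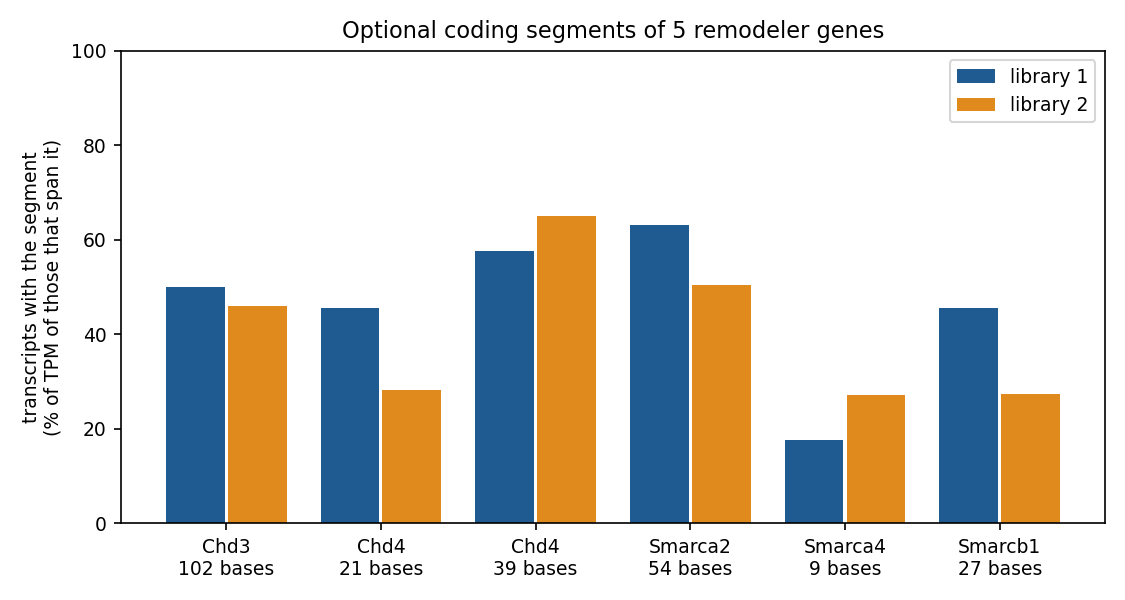
Share of TPM (%, vertical axis, 0 to 100) of transcripts that hold each optional coding segment, among transcripts that span it, with library 1 left of library 2. The Smarcb1 segment (45.6% and 27.3%) and the 21-base Chd4 segment (45.6% and 28.2%) are lower in library 2.

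Between the technical libraries most of the remodeler genes differed by less than 1.5-fold. The ratio used is library 1 over library 2 of expected counts divided by library totals, for the 36 genes with at least 10 counts summed (all but Smarca1). It was above 1 for 18 genes and below 1 for 18, with a median log2 ratio of 0.01. With TMM or DESeq2 scaling factors, 23 of the 36 were above 1 and 13 below. Of the 36, 28 were within 1.2-fold and 32 within 1.5-fold. At least 1.5-fold higher in library 1 were 2 genes, against 14.5% of the 24151 genes tested, and at least 1.5-fold higher in library 2 were 2 genes, against 39.1%. At least 2-fold higher were 0 genes in library 1, against 9.41%, and 2 in library 2, against 32.8%. By the counts of the small gene table, Gatad2b was past 1.5-fold on the library 1 side, against 13% of the genes tested there, and Smarca1 (1 and 10 counts) on the library 2 side, against 24.6%. The 24151 genes reach down to 10 counts, and most of the remodeler genes lie well above that. Among genes whose mean TPM was 10 or more, where 32 of the 37 lie, 1 remodeler gene was 1.5-fold higher in library 1, against 6.37%, and 0 were in library 2, against 6.2%. Numbers this small do not set the remodeler genes apart from other genes at that level. The median size of the log2 ratio was 0.15 for those 32 genes and 0.21 for all 8901 genes at that level.

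The 4 genes past 1.5-fold belonged to NuRD (Gatad2b), canonical BAF (Arid1b) and the BAF core (Bcl7a and Smarcd3). Gatad2b (chromosome 3, 90293178 to 90363407, plus strand) had 805 counts in library 1 and 343 in library 2, a 1.94-fold ratio (95% exact interval of counting error 1.71 to 2.21). By TPM its ratio was 1.46, with an effective length in the authors' table of 5342 in library 1 and 4077 in library 2. Its long transcript Gatad2b-205 held 63.5% of TPM in library 1 and 34.3% in library 2. Arid1b (chromosome 17, 4994332 to 5347656, plus strand) had 4444 and 2437 counts, a 1.51-fold ratio (1.44 to 1.59), and its ratio in the small table was 1.499. Bcl7a, with 188 and 328 counts, had a log2 ratio of -1.07, and in the small table it had 57 and 48 counts and a log2 ratio of 0.06. Smarcd3, with 9.56 and 35.2 counts, had a log2 ratio of -2.10, and in the small table, with 55 and 36 counts, one of 0.42. The direction of Bcl7a and Smarcd3 was thus opposite in the second count of the same libraries. Smarcd3 shares up to 2050 exonic bases with Chpf2 on the other strand, and strand use in counting is not given in the sources used here.

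Smaller differences exceeded counting error in many of the genes. Over all 36 genes, those past 1.5-fold included, the 95% counting interval of the ratio lay above 1 for 14 genes and below 1 for 15 and held 1 for 7. These intervals use library totals and were not taken with other scaling factors. The share of all genes whose interval leaves out 1 was not taken either, so these numbers do not set the remodeler genes apart. Smarce1 was highest among those within 1.5-fold, at 1.40 (1.33 to 1.48). The ATPases Chd1 (log2 ratio -0.31), Chd2 (-0.28), Smarca2 (-0.26) and Chd7 (-0.21) were on the library 2 side, and Smarca4 (0.15), Smarca5 (0.11) and Ino80 (0.36) on the library 1 side. In the small table these 7 ratios had the same direction. Of the 36 genes, 7 had the opposite sign there. The summed levels of the erythroid or platelet and cell cycle markers were higher in library 1 and those of the NK cell and myeloid markers in library 2, as given above, and their part in these ratios was not tested. Single markers went the other way, among them the myeloid gene Lyz2 (23.8 TPM in library 1 and 3.72 TPM in library 2) and the cell cycle gene Top2a (6.50 and 9.24). So did the NK cell gene Klrb1c and, slightly, the cell cycle gene Pcna.

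**Figure D5:**
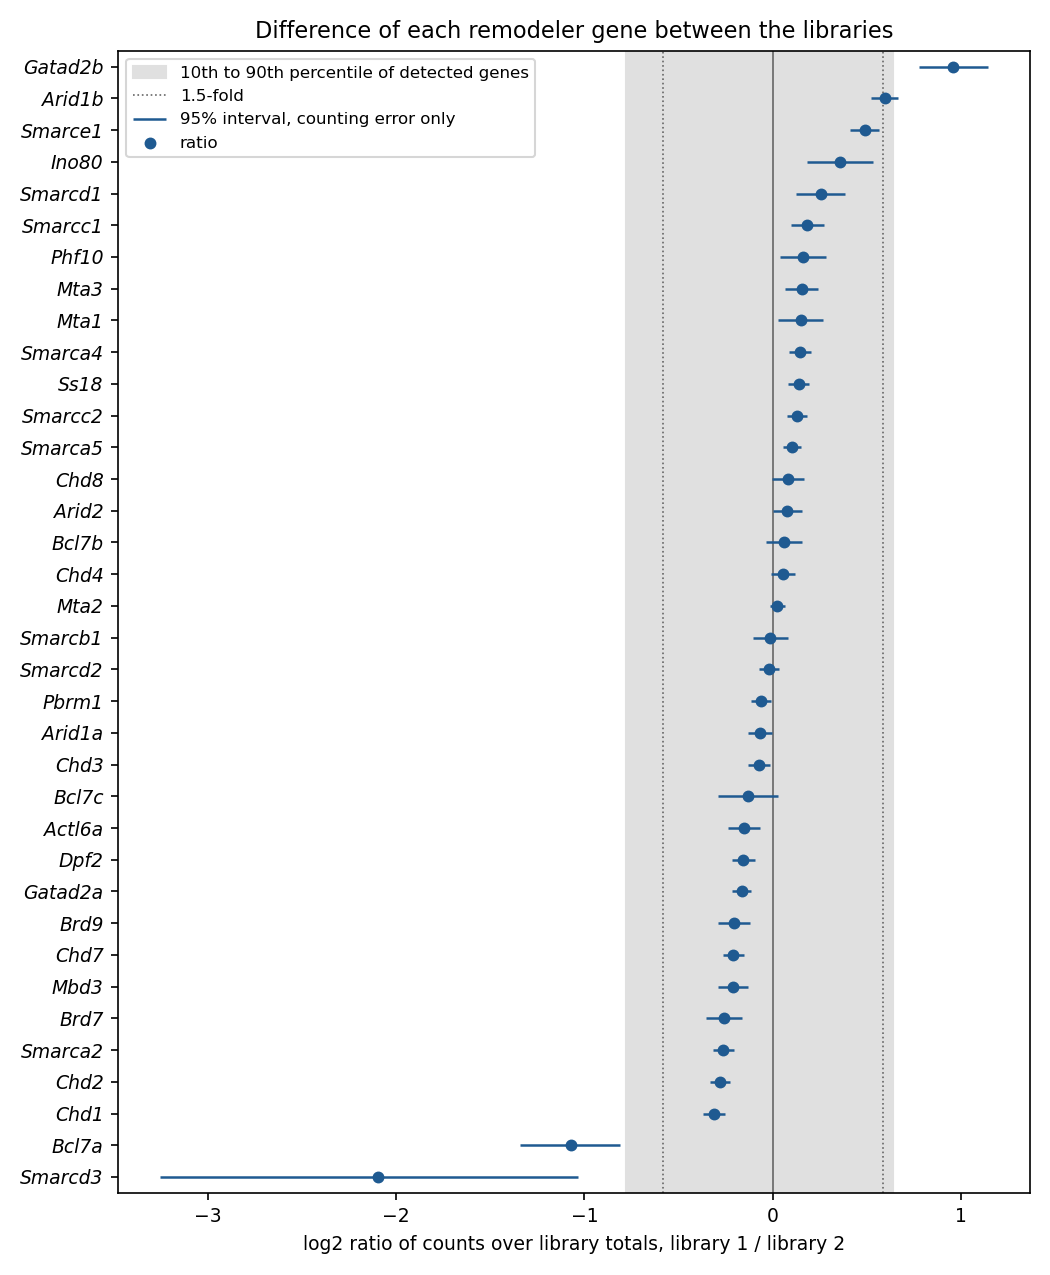
Log2 ratio of library 1 over library 2 (horizontal axis) of the 36 tested remodeler genes in the large gene table, each point with its 95% counting interval as a line; the grey band is the range from the 10th to the 90th percentile of detected genes (-0.78 to 0.64) and dotted lines mark 1.5-fold. Gatad2b (0.96) lies right of the band, and Bcl7a (-1.07) and Smarcd3 (-2.10) lie left of it.

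Most of the promoters that could be read were rich in CpG dinucleotides. Promoter windows of 300 bases from RefSeq (GRCm38.p6; 250 bases before the start and 50 after) were found for 28 of the 37 genes, 33 windows in all. The windows of Brd9 overlap each other, and so do those of Chd4, so their shared bases were counted more than once. The median number of CpG dinucleotides in the 33 windows was 31, against 21 for the 10956 promoters of detected coding genes and 7 for all 32851 promoters. Of the 33 windows, 26 lay above the median of 21 and 5 below it, 1 window each of Smarcd2, Smarca1, Gatad2b, Chd4 and Dpf2. The GC box GGGCGG, searched on both strands, was in 32 of the 33 windows (97.0%), against 62.4% of promoters of detected coding genes and 35.7% of all. CCAAT was in 10 (30.3%, against 38.2% and 37.4%), TATAAA in 2 (6.06%, against 7.00% and 13.6%) and the ETS letters CCGGAAGT in 1 (3.03%, against 8.83% and 3.89%). The median GC content was 68% here and 60.7% for promoters of detected coding genes, and its part in the GC box share was not tested. The Smarcd2 window (chr11:106267583-106267882, minus strand) had the fewest CpG, 4. It lies inside the gene as annotated in GENCODE (106263179 to 106272972), and no window at the GENCODE start of Smarcd2 was read. Part of the window of Mta2, the most abundant gene, is printed as an example, from its first base to the base before the GENCODE start of the gene, with GC boxes in capitals. The ETS match among the 33 windows lies in the Mta2 window beyond the printed stretch.
Mta2, chr19:8941670-8941874, plus strand: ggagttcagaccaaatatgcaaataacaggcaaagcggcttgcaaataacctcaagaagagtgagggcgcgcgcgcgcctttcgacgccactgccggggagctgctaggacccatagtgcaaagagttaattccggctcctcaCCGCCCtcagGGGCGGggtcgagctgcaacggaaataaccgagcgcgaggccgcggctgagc
This stretch of 205 bases holds 19 CpG dinucleotides and 2 GC boxes, 1 on each strand.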

How the data were processed

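Polyadenylated RNA of 2 technical libraries from 1 biological replicate was quantified by the authors on mm10. The large gene and transcript tables hold expected counts, which are estimates that need not be whole, per the file headers. They also hold TPM and FPKM as deposited, both divided by effective length, and for each transcript its percent of the gene (IsoPct), per the file headers. The deposited posterior standard deviations of the counts describe the estimate. Whole-number counts make up the deposited small gene table of each library. The sources used here give no aligner, quantifier or use of strand. All 37 genes are in both tables.

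The genes and the lists were chosen with earlier results of these data known. All 37 genes are named. The value of 1 marker gene is not reported here. Of 41 further remodeler genes, the 5 highest by mean TPM, those under a TPM of 1 in both libraries and those at least 2-fold apart with at least 100 counts summed (none) are named. Bicra, Bicral and the genes of the overlaps were named in addition, after their values were seen. Ratios are library 1 over library 2 of expected counts, 0.5 added, over library totals, for genes with at least 10 counts summed. Their calculation was checked on simulated counts with known 2-fold changes and counting error only. The spread between the real libraries is larger, so this checks the calculation and not the ratios given here. Intervals are exact binomial intervals (95%) and cover counting error only. No p-value is given, because the libraries are technical and differ by more than counting error. SDs are the spread of 2 libraries of 1 biosample. Transcripts and symbols are GENCODE M21, and Python 3.11.15, scipy 1.17.1, edgeR 4.0.16 and DESeq2 1.42.0 (scaling factors, on rounded expected counts) were used. Alternatives were other thresholds, scalings, tables, transcript sets and each library alone.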

Additional observations from a re-analysis of the deposited data

How the results depend on the processing

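Of the 37 genes, 32 to 36 were detected under other thresholds, in the small table or in a single library. The number at least 1.5-fold higher in library 1 was 1 by TPM, 1 by FPKM (both Arid1b) and 1 in the small table (Gatad2b), 0 at a fold of 2, and 3 with TMM or DESeq2 factors, which add Smarce1. The number higher in library 2 was 1 in the small table (Smarca1). The share of all genes past 1.5-fold was not taken by TPM or FPKM or with TMM or DESeq2 factors, so these numbers cannot be set against it. The median log2 ratio of 0.01 became 0.10 with TMM and 0.11 with DESeq2 factors, -0.058 by TPM, -0.038 by FPKM, 0.048 in the small table and -0.013 with no filter. The median over detected genes moved likewise with these factors, being -0.01, 0.09 with TMM and 0.10 with DESeq2 factors. The median level was 73.9 in TPM and 45.7 in FPKM, and 71.9 to 73.2 in a single library.

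Over protein-coding transcripts the mean share of Smarca2 was 49.3% (59.8% over all), of Chd3 51.7% (66.0%), of Smarcc2 76.5% (71.6%) and of Bcl7b 70.9% (51.3%). Over long coding transcripts it was 41.7% for Smarca2, 48.0% for Chd3, 78.0% for Smarcc2, 92.0% for Bcl7b and 95.6% for Gatad2a (93.5%). With long decay targets added, Smarca2 was at 51.3% and the others kept these values. In a single library the share of Arid1a was 44.0% to 57.1% (50.6% over both). The leading transcript was shared by 29 genes by TPM, 30 by counts and 31 among coding transcripts. No paired analysis was possible because the samples form 1 group.

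Depth limited few of these genes: Smarca1 had fewer than 10 counts summed over both libraries, and Smarcd3 had 9.56 in library 1. The small table held a median of 54.1% of a gene's large-table counts in library 1 and 56.6% in library 2 (31.2% and 33.3% over all matched genes), but 5.08% and 6.09% for Smarce1, 13.7% and 15.4% for Ss18 and 16.4% and 18.2% for Smarca5, and the cause was not tested. The exons of 17 of the 37 genes overlap another gene, and those of 8 a detected one.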

Other observations

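Among detected genes that overlap a remodeler gene, the highest was 1810026B05Rik (described above), which shares up to 2628 exonic bases with Chd2 on the same strand. On the opposite strand, Dhx30 (126 TPM in library 1 and 123 TPM in library 2, likewise below) overlaps Smarcc1 by 123 bases, Gnl3 (84.7 and 74.4) overlaps Pbrm1 by 15, Mrpl47 (24.3 and 19.2) overlaps Actl6a by 452 and Chpf2 (30.6 and 22.2) overlaps Smarcd3 by up to 2050.

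The posterior standard deviation of the count exceeded 1% of the count in 3 of the 37 genes. It was 45.9% in library 1 and 20.2% in library 2 for Smarcd3, 2.45% and 2.11% for Bcl7c and 1.11% and 1.41% for Smarce1.

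Of the 41 further remodeler genes, 40 were tested, and 1 was at least 1.5-fold higher in library 1 (Ino80d, 1108 and 534 counts), against 14.5% of the 24151 genes tested. In library 2, 5 were, against 39.1%: Smarcad1 (881 and 1222 counts), Actr8 (1150 and 1460), Cecr2 (170 and 260), Chd5 (10 and 19) and Actl6b (0 and 10). These genes were named after their values were seen. The 24151 genes reach down to 10 counts, and most of the further remodeler genes lie well above that. Among all genes at a mean TPM of 10 or more, 6.37% were 1.5-fold higher in library 1 and 6.2% in library 2. Ino80d, Smarcad1 and Actr8 were at that level. The further remodeler genes at that level were not counted, so these numbers do not set them apart. The coding transcript Bcl7c-201, with 651 coding bases, had 8.46 TPM in library 1 and was listed at 0 in library 2.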
